A study of Mus musculus with 8 samples.

Results

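The Hox genes encode homeodomain transcription factors that lie in 4 clusters, Hoxa, Hoxb, Hoxc and Hoxd, and were measured here in primary mouse epidermal cells with and without added Dlx3. The members were chosen by symbol alone, as every gene of the deposited expression table named Hox, a cluster letter and a number, which gave 39 of the 26202 genes. The cells were dissected from the skin epidermis of newborn pups, plated, and transduced with an adenovirus after 24 hours. The 4 groups were Dlx3 knockout (KO) cells with AdDlx3, the virus that encodes Dlx3; Dlx3 wild-type (WT) cells with AdDlx3; KO cells with AdGFP, the control virus that encodes green fluorescent protein; and WT cells with AdGFP. Each group had 2 libraries of polyadenylated RNA, 1 from each of the batches A and B that the deposited sample sheet names. All 8 libraries therefore carry an adenovirus, and no culture without virus was analysed here. The knockout allele, the promoter that drives Dlx3 in the virus and whether replicates are separate pups or cultures are not stated in the sources read for this work, so p-values measure only the spread between these libraries, which may be technical.

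In each Hox cluster the genes are numbered along the chromosome, and members of different clusters with the same number form a paralog group. Genes with low numbers are switched on earlier and nearer the head of the embryo than genes with high numbers, an order known as collinearity. In adult and newborn skin Hox genes keep patterns that follow body position, and Hoxc13, at the high-numbered end of its cluster, is required in mouse and human for the keratins of hair and nail. Dlx3 is itself a homeodomain factor of the upper epidermis and the hair follicle, but belongs to the Dlx family and lies outside the Hox clusters.

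The libraries held between 73688944 and 124857742 alignments, and 11011 to 11594 genes reached 1 RPKM (reads per kilobase of gene, scaled to the size of the library) in a library. Dlx3 was measured at 402 and 539 RPKM in KO AdDlx3, 237 and 782 RPKM in WT AdDlx3, 0.656 and 0.558 RPKM in KO AdGFP, and 1.71 and 1.77 RPKM in WT AdGFP, in batches A and B in turn. Reads of the virus and of the cells' own Dlx3 gene cannot be told apart. The labels call the material primary cultured cells, and the keratinocyte markers were present: the basal keratin gene Krt5 ranged over 221 to 4261 RPKM with AdDlx3 and 6223 to 9244 RPKM with AdGFP. The batch B AdDlx3 libraries stood apart in these keratins, with Krt5 at 300 RPKM in KO and 221 RPKM in WT cells, against 3330 and 4261 RPKM in their batch A partners. Over all genes the median difference of AdDlx3 from AdGFP was 0.22 on the log2(RPKM + 0.5) scale, so a gene that kept pace with the rest would show that value.

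Expression was low throughout and was concentrated in the low and middle paralog groups. Of the 39 genes, 23 reached 1 RPKM in at least 2 libraries and were tested, 17 of them in all 8 libraries and 6 in 2 to 7; the other 16 stayed below 1 RPKM in every library, and 0 were listed at 0 in all 8. Among paralog groups 1 to 9, 22 of 27 genes were tested, whereas among groups 10 to 13 only 1 of 12 was, Hoxc13. The median of the mean level over 8 libraries was 1.92 RPKM for groups 1 to 3, 3.19 RPKM for groups 4 to 8, 1.12 RPKM for group 9 and 0.0210 RPKM for groups 10 to 13. By cluster, 8 of 11 Hoxa genes, 8 of 10 Hoxb genes, 6 of 9 Hoxc genes and 1 of 9 Hoxd genes, Hoxd8, were tested. The Hox genes together made up 0.0133% to 0.0252% of the RPKM sum of a library, and none had a mean above 9.98 RPKM, the median of the genes tested.

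**Figure D1:**
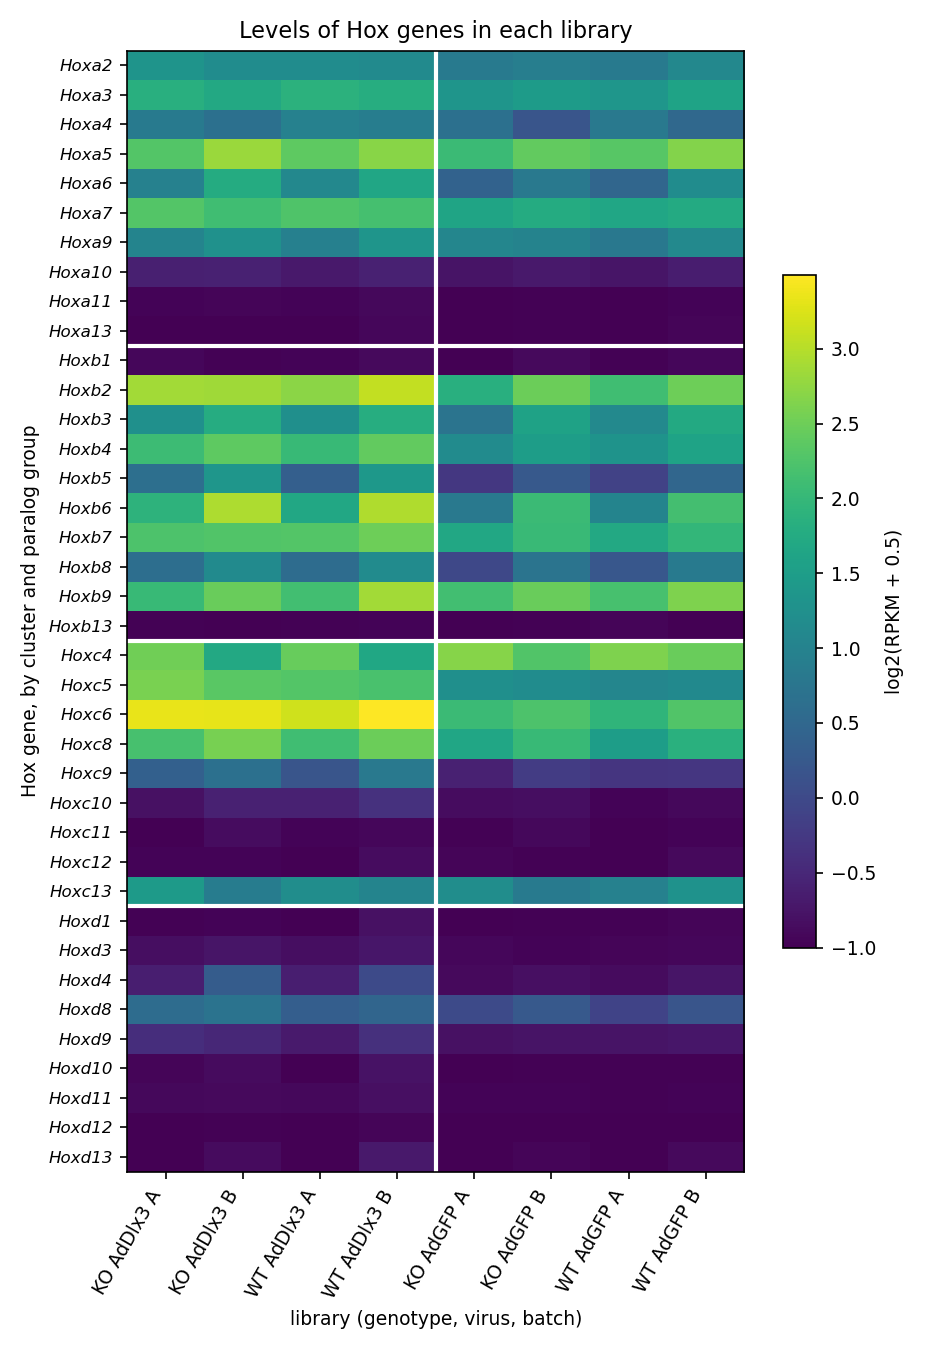
Level of the Hox genes reported here (rows, by cluster and paralog group) in each of the 8 libraries (columns, AdDlx3 left of the white vertical line, AdGFP right of it), as log2(RPKM + 0.5) by colour; white horizontal lines part the clusters. Rows of paralog groups 10 to 13 are dark in every library except that of Hoxc13, and the Hoxd cluster is dark except for Hoxd8 and, with AdDlx3 in batch B, Hoxd4.

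Among the higher mean levels over the 8 libraries was that of Hoxc6, a thoracic patterning gene, at 6.76 RPKM. It was followed by Hoxb2, a hindbrain gene, at 5.59 RPKM, Hoxa5, needed for lung and neck vertebrae, at 5.07 RPKM, Hoxb9 at 4.74 RPKM and Hoxc4 at 4.58 RPKM. Neighbours in this order are not set apart by their spread over libraries, since Hoxc6 ranged over 8.52 to 10.8 RPKM with AdDlx3 and 3.34 to 4.31 RPKM with AdGFP and so changed its place in the order with the virus. RPKM is a level per length, so these levels may be compared between genes, as far as the gene lengths used by the authors hold.

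Many of the genes below 1 RPKM in every library are known from the hind part of the body, the limb tip and the genital region. Hoxa13, Hoxb13, Hoxc12, Hoxd12 and Hoxd13 reached at most 0.0288, 0.0204, 0.0524, 0.0199 and 0.118 RPKM in a library. Hoxd12 was listed at 0 in all 4 AdGFP libraries and in both batch A AdDlx3 libraries. At the other end, Hoxb1 and Hoxd1, of the head-most paralog group, reached at most 0.0425 and 0.0744 RPKM.

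Summed over each cluster, the Hoxc, Hoxb and Hoxd genes stood higher with AdDlx3, by different amounts, and the Hoxa genes by little. The Hoxc sum was 27.6 and 24.99 RPKM in KO AdDlx3 and 24.4 and 25.8 RPKM in WT AdDlx3, against 16.2 and 15.7 RPKM in KO AdGFP and 14.7 and 16.5 RPKM in WT AdGFP. All 4 AdDlx3 libraries thus lay above all 4 AdGFP libraries, at 25.7 ± 1.40 RPKM with AdDlx3 and 15.8 ± 0.802 RPKM with AdGFP (SD, n = 4 each). The Hoxb sum was 30.9 ± 7.11 RPKM with AdDlx3 and 20.4 ± 5.42 RPKM with AdGFP, with overlap between the groups, because both viruses gave higher sums in batch B than in batch A. The Hoxd sum was 1.78 ± 0.541 RPKM with AdDlx3 and 0.791 ± 0.174 RPKM with AdGFP, and the Hoxa sum was 25.6 ± 0.791 RPKM with AdDlx3 and 23.5 ± 1.76 RPKM with AdGFP. These sums are given without a test.

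**Figure D2:**
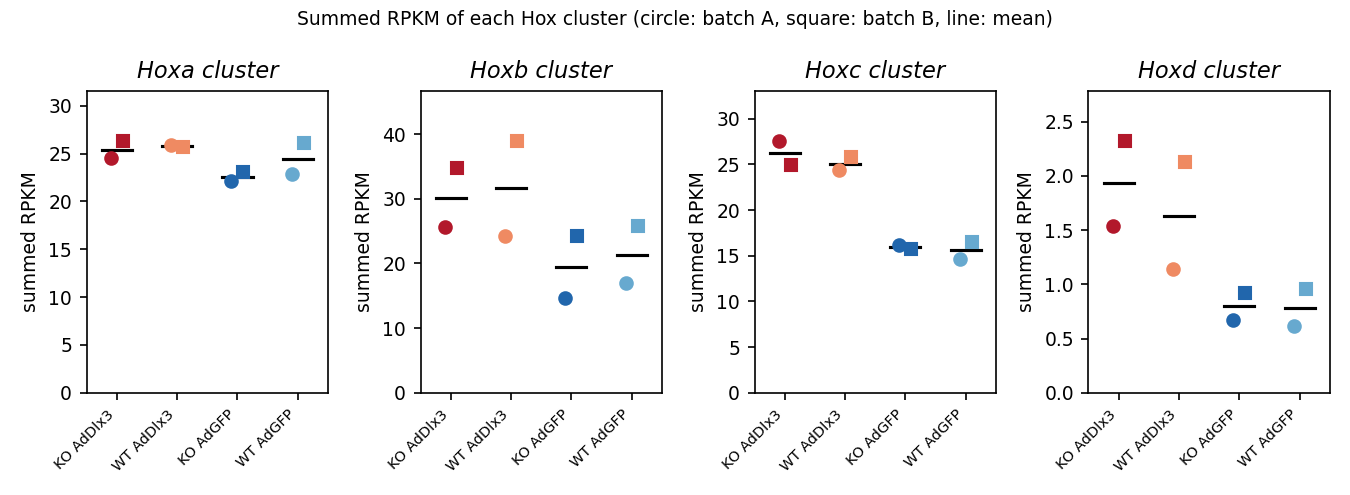
Summed RPKM of the genes of each Hox cluster in each library; circles are batch A, squares are batch B and lines are group means of 2 libraries. The 4 AdDlx3 values of the Hoxc panel, 24.4 to 27.6 RPKM, lie above the 4 AdGFP values, 14.7 to 16.5 RPKM, and squares lie above circles in each group of the Hoxb panel.

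The first comparison asked which Hox genes respond to added Dlx3 when KO and WT cells are read together, 4 libraries for each virus. Hoxc5 and Hoxc6 rose most; Hoxb4, Hoxb2, Hoxb7, Hoxa7, Hoxc8 and Hoxc9 rose by less, and Hoxc13 did not pass. In limma, 9 of the 23 genes tested passed a Benjamini-Hochberg adjusted p of 0.05 taken over all 12090 genes, a share of 39.1%, and the 8 reported here all rose. Of all genes tested 29.2% passed, 23.4% upward and 5.74% downward, so that the 34.8% of Hox genes that rose stands beside a background of 23.4%. The difference was positive in 21 of the 23 genes as deposited and in 16 after median-of-ratios scaling, which sets the typical gene equal between libraries; of all genes 71.5% were positive as deposited and 44.0% after scaling. The median difference was 0.45 over the 23 genes, against 0.22 over all genes tested. Hoxb5, Hoxc9 and Hoxd8 reached 1 RPKM in AdDlx3 libraries only and so entered the test through the group where they were higher. With the stricter requirement of 1 RPKM in at least 4 libraries, which leaves them out, 8 of 20 genes passed, 7 of them upward, against 28.8% of all genes under that filter (23% up and 5.73% down). With no filter on low values 9 of all 39 genes passed, against 16.9% of the genes then tested.

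**Figure D3:**
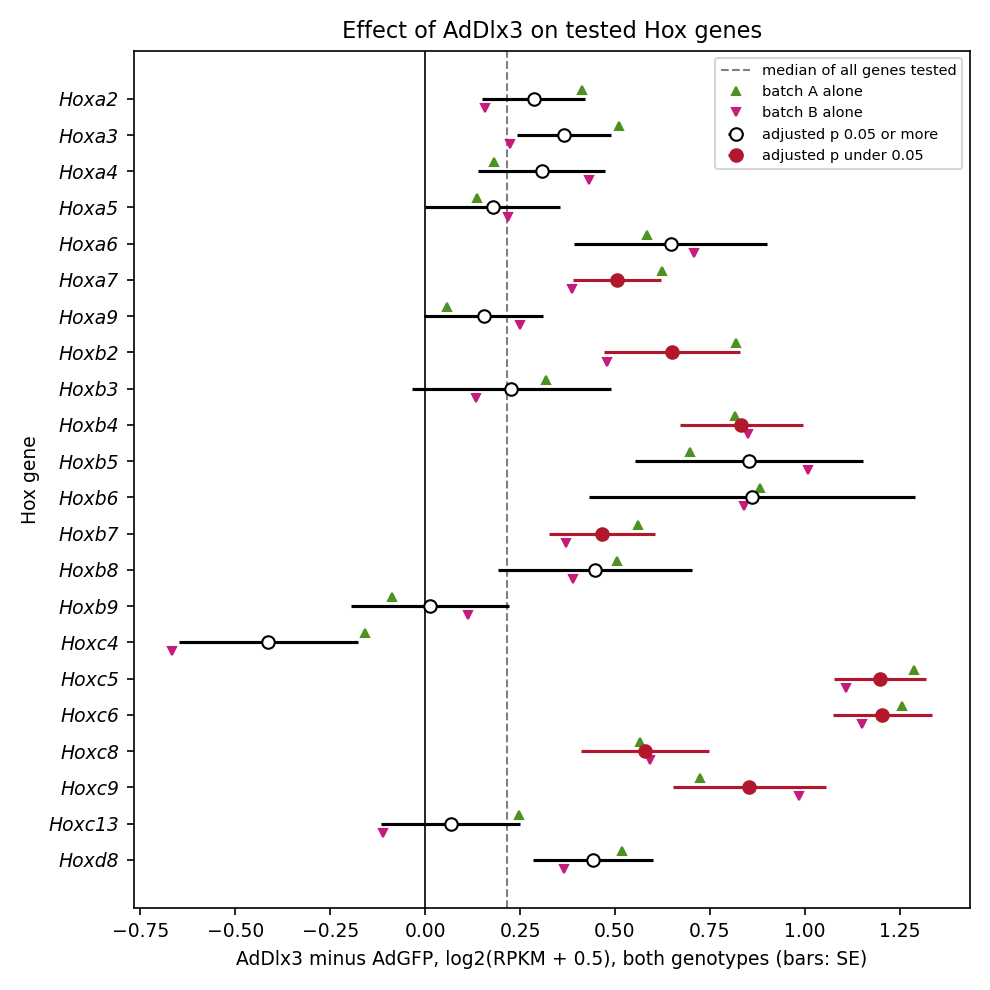
Difference of AdDlx3 from AdGFP on the log2(RPKM + 0.5) scale for the tested Hox genes reported here; large points are the estimate over both genotypes with bars of 1 SE to each side, filled red where the limma adjusted p was under 0.05, and triangles are the difference within batch A (pointing up) and batch B (pointing down). The dashed line marks 0.22, the median of all genes tested; Hoxc5 and Hoxc6 lie farthest to the right, Hoxc4 lies left of 0, and the batch A and batch B triangles of Hoxc13 lie on opposite sides of 0.

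In the Hoxc cluster (chromosome 15, 102921103 to 103036852, plus strand, GRCm38) the genes run in the order Hoxc13, Hoxc12, Hoxc11, Hoxc10, Hoxc9, Hoxc8, Hoxc6, Hoxc5, Hoxc4. The 4 neighbours from Hoxc9 to Hoxc5 all rose, while Hoxc4 at one end and Hoxc13 at the other did not pass. Hoxc5, a cervical and thoracic patterning gene (102967443 to 103017429), was measured at 5.49 and 4.55 RPKM in KO AdDlx3 and 4.39 and 4.09 RPKM in WT AdDlx3, against 1.87 and 1.77 RPKM in KO AdGFP and 1.58 and 1.70 RPKM in WT AdGFP. Every AdDlx3 library was above every AdGFP library, and within each virus KO libraries lay slightly above WT libraries (0.16 ± 0.12 SE over both viruses, limma unadjusted p = 0.21). The difference was 1.20 ± 0.12 (SE), a 2.29-fold change on that scale (limma adjusted p = 0.000752), with 1.29 within batch A and 1.11 within batch B. The annotated span of Hoxc5 contains Hoxc6, Hoxc8 and Hoxc9 and shares exon bases with Hoxc10 on the same strand, so a part of its reads could be assigned either way; which gene models and strand setting the authors used is not stated in these sources.

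Hoxc6 (102998257 to 103011881), whose annotated exons overlap those of no other gene, was measured at 9.69 and 9.50 RPKM in KO AdDlx3 and 8.52 and 10.8 RPKM in WT AdDlx3, against 3.70 and 4.24 RPKM in KO AdGFP and 3.34 and 4.31 RPKM in WT AdGFP. It too was higher in each AdDlx3 library than in any AdGFP library. The difference was 1.20 ± 0.13 (SE), a 2.30-fold change (limma adjusted p = 0.000999), with 1.26 within batch A and 1.15 within batch B. Relative to the median of all genes, Hoxc5 was higher by 0.98 and Hoxc6 by 0.99. Both passed under each of the alternative settings and with each library left out.

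Hoxc8, which patterns the thorax (102990607 to 102994111), was measured at 4.02 and 5.48 RPKM in KO AdDlx3 and 3.84 and 5.11 RPKM in WT AdDlx3, against 2.67 and 3.59 RPKM in KO AdGFP and 2.33 and 3.10 RPKM in WT AdGFP. It differed by 0.58 ± 0.17 (SE; limma adjusted p = 0.0361), by 0.57 within batch A and 0.59 within batch B. The groups did not overlap, but the call rested on the settings: the adjusted p was 0.217 after scaling, and lay between 0.0599 and 0.111 in limma without KO AdDlx3 replicate 2, WT AdDlx3 replicate 2, KO AdGFP replicate 1 or either WT AdGFP library. Hoxc9, a thoracic gene that in mouse sets motor neuron identity (102976439 to 102985099), was measured at 0.791 and 1.09 RPKM in KO AdDlx3 and 0.632 and 1.25 RPKM in WT AdDlx3, against 0.162 and 0.370 RPKM in KO AdGFP and 0.309 and 0.318 RPKM in WT AdGFP. All AdDlx3 libraries were above all AdGFP libraries, by 0.85 ± 0.20 (SE; limma adjusted p = 0.0174), and by 0.72 within batch A and 0.98 within batch B. At these levels the added 0.5 RPKM understates the change: mean levels were 0.941 ± 0.281 RPKM with AdDlx3 and 0.290 ± 0.0896 RPKM with AdGFP (SD, n = 4 each). Without KO AdDlx3 replicate 2, WT AdDlx3 replicate 2, KO AdGFP replicate 1 or WT AdGFP replicate 1 its limma adjusted p was 0.05001 to 0.05263, just over the threshold.

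**Figure D4:**
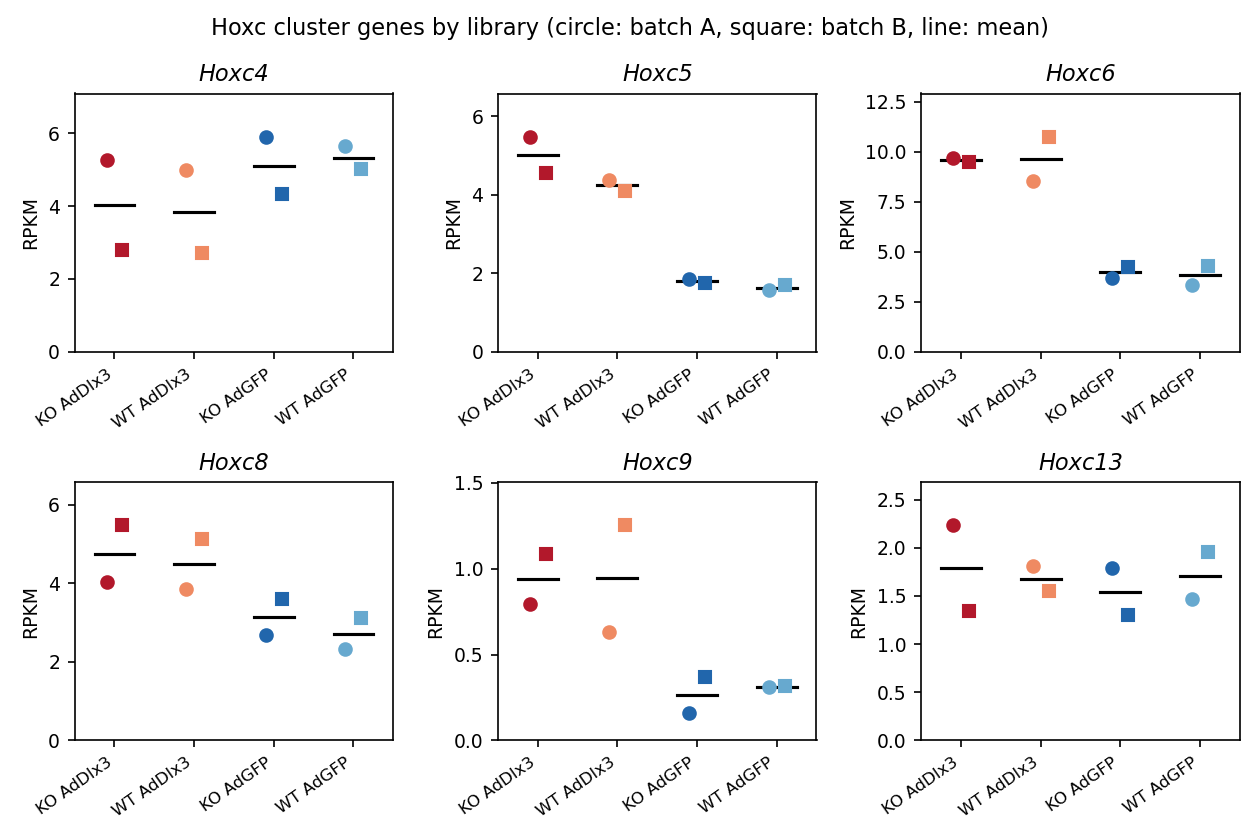
RPKM of the 6 tested Hoxc genes in each library; circles are batch A, squares are batch B and lines are group means of 2 libraries. Hoxc5, Hoxc6, Hoxc8 and Hoxc9 are higher in each AdDlx3 library than in any AdGFP library, Hoxc4 is lower in AdDlx3 libraries mainly in batch B, and the libraries of Hoxc13 overlap between viruses.

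Hoxc13 (102921103 to 102928814) was the one member of paralog groups 10 to 13 above the filter. It was measured at 2.24 and 1.35 RPKM in KO AdDlx3 and 1.81 and 1.55 RPKM in WT AdDlx3, against 1.79 and 1.30 RPKM in KO AdGFP and 1.46 and 1.95 RPKM in WT AdGFP. The libraries of both viruses overlapped over nearly their whole range, at 1.74 ± 0.385 RPKM with AdDlx3 and 1.63 ± 0.298 RPKM with AdGFP (SD, n = 4 each). Its difference was 0.07 ± 0.18 (SE; limma adjusted p = 0.801, unadjusted 0.722), with a 95% confidence interval of -0.35 to 0.49 before any adjustment for the number of genes. Differences the size of those of Hoxc5, Hoxc6, Hoxc9, Hoxb4, Hoxb2, Hoxc8 and Hoxa7 lay outside this interval, and that of Hoxb7 lay inside it. Within batches it differed by 0.25 in A and -0.11 in B, and after scaling by -0.16, so the data give it no direction. In the authors' deposited table its fold change was 1.13 in KO cells (q = 0.561) and -1.01 in WT cells (q = 0.647), where a minus sign marks a level lower with AdDlx3.

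Hoxc4 (103018934 to 103036852) went the other way from its neighbours Hoxc5 and Hoxc6 without passing the test. It was measured at 5.27 and 2.79 RPKM in KO AdDlx3 and 4.98 and 2.70 RPKM in WT AdDlx3, against 5.90 and 4.32 RPKM in KO AdGFP and 5.64 and 5.02 RPKM in WT AdGFP. The lowest values were those of the 2 batch B AdDlx3 libraries, and the difference, -0.41 ± 0.24 (SE; limma adjusted p = 0.217), was -0.16 within batch A and -0.67 within batch B. With the replicate number as a block its limma adjusted p was 0.0322, and its AdDlx3 library was lower than the AdGFP library in all 4 pairs of the same genotype and batch.

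The promoter windows of 3 members are shown to let Hoxb4, which rose, be read beside Hoxc4 and Hoxd8, which did not pass; each runs 5′ to 3′ from 250 bases before to 50 after the RefSeq gene start (GRCm38.p6), and capitals mark a match to the homeodomain motif TAATTA or TAATTG on either strand. Hoxd8 was nonetheless higher in each AdDlx3 library than in any AdGFP library. With the replicate number as a block, Hoxd8 passed upward (limma adjusted p = 0.0155) and Hoxc4 downward (0.0322), so neither is a clear non-responder. The windows are chr11:96318017-96318316, chr15:103034145-103034444 and chr2:74704365-74704664, all on the plus strand. The window of Hoxc4 lies inside the gene as annotated in GENCODE M21, 103018934 to 103036852. The bases at that upstream start were not searched.
Hoxb4: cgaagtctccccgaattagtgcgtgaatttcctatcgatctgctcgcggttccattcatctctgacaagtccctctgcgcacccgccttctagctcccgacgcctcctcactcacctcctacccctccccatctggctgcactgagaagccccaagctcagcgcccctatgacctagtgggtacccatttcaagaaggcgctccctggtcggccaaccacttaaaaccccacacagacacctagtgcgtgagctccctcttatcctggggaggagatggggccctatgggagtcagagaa
Hoxc4: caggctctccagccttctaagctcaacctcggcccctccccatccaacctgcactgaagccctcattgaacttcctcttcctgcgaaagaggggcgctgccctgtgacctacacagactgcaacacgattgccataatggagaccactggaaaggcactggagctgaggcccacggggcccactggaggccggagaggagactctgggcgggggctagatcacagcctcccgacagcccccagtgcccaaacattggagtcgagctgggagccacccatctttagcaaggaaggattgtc
Hoxd8: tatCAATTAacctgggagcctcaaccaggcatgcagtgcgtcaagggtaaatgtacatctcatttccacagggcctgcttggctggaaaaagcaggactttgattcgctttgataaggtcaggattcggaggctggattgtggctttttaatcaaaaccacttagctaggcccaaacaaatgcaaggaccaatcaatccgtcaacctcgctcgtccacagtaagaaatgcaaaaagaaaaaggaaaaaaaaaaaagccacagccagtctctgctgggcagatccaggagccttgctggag
The 300 bases of Hoxb4 and Hoxc4 hold neither motif, and those of Hoxd8 hold 1, written CAATTA on the plus strand, which is TAATTG on the other. Of the 39 members 22 had a window in the RefSeq table, 10 of them among the 23 tested, and 3 of the 22, or 13.6%, held a match, against 14.2% of all 27025 genes with a window. The members with a match were Hoxd8, Hoxd10 and Hoxd11. Among those with no window were Hoxc5, Hoxc6, Hoxc8, Hoxc9 and Hoxc13. A match or its lack says nothing of whether Dlx3 binds there.

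In the Hoxb cluster (chromosome 11, 96194316 to 96368256, plus strand, GRCm38) Hoxb4, Hoxb2 and Hoxb7 rose. Hoxb4, known for expanding blood stem cells (96318267 to 96321638), was measured at 3.73 and 4.73 RPKM in KO AdDlx3 and 3.58 and 4.86 RPKM in WT AdDlx3, against 1.75 and 2.33 RPKM in KO AdGFP and 1.97 and 2.54 RPKM in WT AdGFP. Each AdDlx3 library was above each AdGFP library. It differed by 0.83 ± 0.16 (SE; limma adjusted p = 0.00831), a 1.78-fold change, by 0.82 within batch A and 0.85 within batch B, and by 0.58 after scaling (adjusted p = 0.0388). It passed without any one of the 8 libraries.

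Hoxb2 was measured at 6.82 and 6.76 RPKM in KO AdDlx3 and 6.05 and 7.94 RPKM in WT AdDlx3, against 3.07 and 5.08 RPKM in KO AdGFP and 3.82 and 5.15 RPKM in WT AdGFP. Hoxb7 was measured at 4.22 and 4.31 RPKM in KO AdDlx3 and 4.40 and 5.17 RPKM in WT AdDlx3, against 2.73 and 3.64 RPKM in KO AdGFP and 2.79 and 3.44 RPKM in WT AdGFP. Neither gene's groups overlapped. Hoxb2 differed by 0.65 ± 0.18 (SE; limma adjusted p = 0.0301), by 0.82 within batch A and 0.48 within batch B. Hoxb7 differed by 0.47 ± 0.14 (SE; limma adjusted p = 0.0388), by 0.56 within batch A and 0.37 within batch B. Both lost the call after scaling, at limma adjusted p of 0.164 for Hoxb2 and 0.324 for Hoxb7. Hoxb2 also lost it without KO AdDlx3 replicate 1 or 2, WT AdDlx3 replicate 2, KO AdGFP replicate 1 or WT AdGFP replicate 1 (0.0599 to 0.0916), and Hoxb7 without any library but KO AdGFP replicate 2 (0.0572 to 0.124). Exons of Hoxb2 overlap those of Hoxb3os on the opposite strand.

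The other Hoxb genes tested were Hoxb3, Hoxb5, Hoxb6, Hoxb8 and Hoxb9, and all of these but Hoxb5 lay higher in every batch B library than in any batch A library. Hoxb6 was measured at 3.24 and 7.21 RPKM in KO AdDlx3 and 2.75 and 7.26 RPKM in WT AdDlx3, against 1.26 and 3.68 RPKM in KO AdGFP and 1.53 and 3.96 RPKM in WT AdGFP. Batch B was thus above batch A whichever the virus, and within each batch AdDlx3 was above AdGFP, by 0.88 in A and 0.84 in B. Over both batches the difference was 0.86 ± 0.43 (SE; limma adjusted p = 0.163), and with the replicate block the adjusted p was 0.00054. With Hoxa5, they were 5 of the 23 genes tested with that pattern, beside a background of 4.19%; 0 lay lower in batch B throughout, where 9.98% of all genes did. Hoxb5 was measured at 1.06 and 2.07 RPKM in KO AdDlx3 and 0.788 and 2.15 RPKM in WT AdDlx3, against 0.328 and 0.698 RPKM in KO AdGFP and 0.420 and 0.902 RPKM in WT AdGFP (difference 0.85 ± 0.30 SE, limma adjusted p = 0.0658, and 0.00175 with the block). Its limma adjusted p was 0.0251 without WT AdDlx3 replicate 1. Hoxb3 ranged over 1.85 to 2.98 RPKM with AdDlx3 and 1.16 to 2.80 RPKM with AdGFP (0.23 ± 0.26 SE, limma adjusted p = 0.538). Hoxb8 ranged over 0.996 to 1.75 RPKM with AdDlx3 and 0.483 to 1.27 RPKM with AdGFP (0.45 ± 0.26 SE, limma adjusted p = 0.218, and 0.0134 with the block). In both the overlap came with the batches, since AdDlx3 was higher in all 4 pairs of the same genotype and batch. Hoxb9 ranged over 3.56 to 6.77 RPKM with AdDlx3 and 3.88 to 5.69 RPKM with AdGFP, with a difference of 0.01 ± 0.21 (SE; limma adjusted p = 0.965) that took either sign between settings.

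In the Hoxa cluster (chromosome 6, minus strand, GRCm38) Hoxa7 rose. Hoxa7 was measured at 4.39 and 3.84 RPKM in KO AdDlx3 and 4.26 and 4.01 RPKM in WT AdDlx3, against 2.59 and 2.92 RPKM in KO AdGFP and 2.67 and 2.85 RPKM in WT AdGFP. The groups did not overlap, and the difference was 0.51 ± 0.12 (SE; limma adjusted p = 0.0149), with 0.62 within batch A and 0.39 within batch B. Its limma adjusted p was 0.155 after scaling and 0.0593 without WT AdGFP replicate 1, and its exons overlap the antisense gene Hoxaas3. Hoxa2, which sets the identity of a branchial arch, and Hoxa3, needed for the thymus, also had groups that did not overlap but did not pass. Hoxa2 ranged over 1.73 to 1.998 RPKM with AdDlx3 and 1.28 to 1.65 RPKM with AdGFP (0.29 ± 0.14 SE, limma adjusted p = 0.146). Hoxa3 ranged over 2.78 to 3.202 RPKM with AdDlx3 and 2.04 to 2.54 RPKM with AdGFP (0.37 ± 0.12 SE, limma adjusted p = 0.0577, and 0.0237 with the block). The groups of Hoxa4, Hoxa5, Hoxa6 and Hoxa9 overlapped. Hoxa4 ranged over 1.07 to 1.47 RPKM with AdDlx3 and 0.634 to 1.26 RPKM with AdGFP, and Hoxa5 over 4.41 to 6.57 RPKM with AdDlx3 and 3.69 to 5.82 RPKM with AdGFP. Hoxa6 ranged over 1.46 to 2.88 RPKM with AdDlx3 and 0.834 to 1.78 RPKM with AdGFP, and Hoxa9 over 1.44 to 2.04 RPKM with AdDlx3 and 1.24 to 1.67 RPKM with AdGFP. Hoxa4, Hoxa5, Hoxa6 and Hoxa9 differed by 0.31, 0.18, 0.65 and 0.15, with limma adjusted p of 0.0902 to 0.483; that of Hoxa6 was 0.00319 with the block.

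In the Hoxd cluster (chromosome 2, 74668310 to 74765142, plus strand, GRCm38) only Hoxd8 was tested. It was measured at 1.01 and 1.14 RPKM in KO AdDlx3 and 0.774 and 0.880 RPKM in WT AdDlx3, against 0.505 and 0.698 RPKM in KO AdGFP and 0.434 and 0.636 RPKM in WT AdGFP. Its groups did not overlap, but its difference of 0.44 ± 0.16 (SE) did not pass (limma adjusted p = 0.0680, and 0.0155 with the block). Hoxd3, Hoxd4, Hoxd9 and Hoxd11, below the filter, likewise lay higher in each AdDlx3 library than in any AdGFP library. Hoxd4 was measured at 0.149 and 0.730 RPKM in KO AdDlx3 and 0.149 and 0.512 RPKM in WT AdDlx3, against 0.0391 and 0.0672 RPKM in KO AdGFP and 0.0491 and 0.0986 RPKM in WT AdGFP. Hoxd9 was measured at 0.247 and 0.204 RPKM in KO AdDlx3 and 0.123 and 0.270 RPKM in WT AdDlx3, against 0.0741 and 0.0866 RPKM in KO AdGFP and 0.0865 and 0.1001 RPKM in WT AdGFP. Hoxc10 was measured at 0.0719 and 0.168 RPKM in KO AdDlx3 and 0.163 and 0.277 RPKM in WT AdDlx3, against 0.0523 and 0.0634 RPKM in KO AdGFP and 0.0146 and 0.0366 RPKM in WT AdGFP. With Hoxc10, these were 5 of the 16 genes below the filter that lay higher throughout with AdDlx3, and 0 lay lower throughout; of all genes below the filter and above 0 in some library, 14.8% lay higher and 2.14% lower throughout. Hoxd3 and Hoxd4 overlap in their exons, so their reads may be shared.

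Of the 23 genes tested, 11 lay higher in all 4 AdDlx3 than in all 4 AdGFP libraries, where 29.6% of all genes did; 6.27% of all genes lay lower throughout. Set against the AdGFP library of the same genotype and batch, 18 of the 23 were higher in all 4 AdDlx3 libraries and Hoxc4 was lower in all 4. The share of all genes with that pattern was not counted, so the 18 cannot be read as a trait of Hox genes. A positive difference over both genotypes, a looser measure, was found in 21 of the 23 and in 71.5% of all genes as deposited. Because the sample sheet ties replicate numbers to batches, the fit with the replicate block was read beside the unblocked one: 16 of 23 passed in it, 14 of them upward, against 48.9% of all genes (38% up and 10.9% down), and all 9 that passed without it were among them. The 7 added were Hoxa3, Hoxa6, Hoxb5, Hoxb6, Hoxb8 and Hoxd8, higher, and Hoxc4, lower. After median-of-ratios scaling Hoxc5, Hoxc6, Hoxc9 and Hoxb4 remained higher and past the threshold, and of all genes 9.67% rose and 12.1% fell. In bulk libraries fewer cells of a type and less RNA per cell cannot be told apart.

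The same question was asked in each genotype alone, with 2 libraries of each virus. Hoxc5 and Hoxc6 passed in both genotypes and no other member did in either. In KO cells, Hoxc5 differed by 1.25 ± 0.19 (SE; limma adjusted p = 0.0240) and Hoxc6 by 1.18 ± 0.20 (SE; limma adjusted p = 0.0299), 2 of 23 genes, against 5.32% of all genes (4.43% upward). In WT cells, Hoxc5 differed by 1.15 ± 0.19 (SE; limma adjusted p = 0.0348) and Hoxc6 by 1.23 ± 0.20 (SE; limma adjusted p = 0.0349), again 2 of 23, against 2.62% of all genes (2.27% upward). With the replicate block 9 passed in KO cells and 8 in WT cells, against 24.6% and 22% of all genes, and leaving out 1 of the 8 libraries left between 0 and 2 in KO cells and 0 or 1 in WT cells. These calls also depended on other settings: after median-of-ratios scaling Hoxc5 alone passed in KO cells (limma adjusted p = 0.0456) and 0 members passed in WT cells, and with no filter on low values 0 passed in either. Of all 12090 genes 349 passed in KO cells and 155 in WT cells after scaling. With no filter 363 of 23265 genes passed in KO cells and 128 in WT cells. In the authors' deposited table Hoxc5 was 2.66-fold higher in KO cells (q = 0.0327) and 2.498-fold higher in WT cells (q = 0.0358), and Hoxc6 was 2.39-fold higher in KO cells (q = 0.0599) and 2.48-fold higher in WT cells (q = 0.0652). Hoxc13 differed by 0.15 ± 0.28 (SE; limma adjusted p = 0.775) in KO cells and by -0.01 ± 0.28 (SE; limma adjusted p = 0.984) in WT cells.

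The effect of genotype on Hox genes was taken over both viruses, with 4 KO and 4 WT libraries. Dlx3 levels overlapped between KO AdDlx3 and WT AdDlx3, so this average does not measure the loss of Dlx3, and KO was also set against WT under AdGFP alone. With AdGFP, Dlx3 was low in both genotypes, at 0.656 and 0.558 RPKM in KO and 1.71 and 1.77 RPKM in WT cells. That comparison is therefore also a limited measure of the loss of Dlx3. Over both viruses, in limma 0 of 23 members and 0 of all 12090 genes (0%) passed, and 0 members had an unadjusted p under 0.05. The differences of KO from WT lay between -0.22 ± 0.17 (SE) for Hoxa4 and 0.17 ± 0.16 (SE) for Hoxd8. For Hoxc13 the difference was -0.03 with a 95% confidence interval of -0.45 to 0.39, and for Hoxc6 it was 0.03 with an interval of -0.27 to 0.33. Under AdGFP alone, with 2 KO and 2 WT libraries, limma called 0 of 23 members and 0 of all genes, and no member's unadjusted p was under 0.05. There KO differed from WT by -0.11 for Hoxc13 (95% confidence interval -0.78 to 0.55), 0.12 for Hoxc5 (-0.33 to 0.56) and 0.05 for Hoxc6 (-0.43 to 0.53), and the members lay between -0.26 for Hoxb3 and 0.17 for Hoxc8. Whether the response to AdDlx3 differed between genotypes was tested as an interaction. There 0 of 23 members and 0 of all 12090 genes (0%) passed in limma, and 0 members had an unadjusted p under 0.05. The response in KO minus that in WT was 0.16 for Hoxc13 (95% confidence interval -0.78 to 1.10), -0.05 for Hoxc6 (-0.73 to 0.63) and 0.10 for Hoxc5 (-0.53 to 0.73). With 2 libraries a group, differences within these intervals are not excluded.

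Hox proteins bind DNA together with TALE homeodomain partners of the Pbx, Meis and Pknox families, and the partner genes that passed were all higher with AdDlx3. Of 11 such genes 10 were tested, 6 rose, 0 fell and 4 did not pass, beside the 23.4% of all genes that rose. The median difference was 0.53 against 0.22 over all genes. Once scaled, 3 rose and 1 fell. Pbx4, one of the 10, reached 1 RPKM in AdDlx3 libraries only and so entered the test through the group where it was higher. Meis3 was measured at 6.23 and 6.34 RPKM in KO AdDlx3 and 4.44 and 6.53 RPKM in WT AdDlx3, against 1.99 and 1.71 RPKM in KO AdGFP and 1.90 and 1.99 RPKM in WT AdGFP. Its difference of 1.40 ± 0.15 (SE; limma adjusted p = 0.000943) stands beside 1.20 for Hoxc5 and for Hoxc6. Meis1 differed by 0.997 ± 0.14 (SE; limma adjusted p = 0.00248) and Pbx3 by 0.56 ± 0.11 (SE; adjusted p = 0.00811, and 0.0897 after scaling). Meis1 ranged over 3.31 to 3.67 RPKM with AdDlx3 and 1.17 to 1.78 RPKM with AdGFP.

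Polycomb proteins keep Hox genes silent and Trithorax proteins keep them active. Of 33 genes for such regulators, all tested, 12 rose, 0 fell and 21 did not pass, beside the 23.4% of all genes that rose, with a median difference of 0.37; 3 rose and 1 fell once scaled, and 19 passed with the block, beside 48.9% of all genes. Rbbp7, a histone-binding subunit shared by several complexes, ranged over 102 to 149 RPKM with AdDlx3 and 59.9 to 75.5 RPKM with AdGFP (0.85 ± 0.15 SE, limma adjusted p = 0.00575). Cbx7, a Polycomb reader of methylated histone, differed by 0.71 ± 0.14 (SE; limma adjusted p = 0.00787), and Phf19, which helps recruit the Polycomb methyltransferase, by 0.96 ± 0.19 (SE; adjusted p = 0.00912). Kdm6b, a demethylase that removes the Polycomb mark, differed by 0.54 ± 0.11 (SE; limma adjusted p = 0.0108, and 0.150 after scaling). Genes for Polycomb silencing and for its removal were thus both among those that rose.

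Of 17 other regulators of Hox transcription, in the retinoid, Cdx and Gdf11 pathways and with Ctcf, 8 were tested. Of the 8, 0 rose, 1 fell and 7 did not pass, beside the 23.4% of all genes that rose and 5.74% that fell. The median difference was -0.12. The one that fell was Aldh1a3, which makes retinoic acid, an activator of low-numbered Hox genes in the embryo. It was measured at 0.315 and 0.168 RPKM in KO AdDlx3 and 0.591 and 0.159 RPKM in WT AdDlx3, against 2.87 and 0.913 RPKM in KO AdGFP and 3.57 and 1.21 RPKM in WT AdGFP (-1.60 ± 0.37 SE, limma adjusted p = 0.0153). AdDlx3 libraries lay below AdGFP libraries, and batch B lay below batch A, in both genotypes. Aldh1a3 reached 1 RPKM in AdGFP libraries only and so entered the test through the group where it was higher.

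Of 34 genes inside or at the edges of the clusters, 31 were in the table and 13 were tested. Of the 13, 4 rose, 0 fell and 9 did not pass, beside the 23.4% of all genes that rose and 5.74% that fell. The median difference over the 13 was 0.30, and none of the 4 passed after scaling. They included Mira (0.56 ± 0.15 SE, limma adjusted p = 0.0293), Halr1 (0.94 ± 0.26 SE, adjusted p = 0.0311) and Snx10 (0.72 ± 0.21 SE, adjusted p = 0.0338), all on the Hoxa side. Of these 3, Snx10 reached 1 RPKM in AdDlx3 libraries only and so entered the test through the group where it was higher. The calls of these 3 were also lost without single libraries, at limma adjusted p of 0.0576 to 0.0804 for Mira, 0.0661 to 0.0832 for Halr1 and 0.0636 to 0.0965 for Snx10. The Hox clusters also hold microRNA genes, whose mature products of the miR-196 family target Hox transcripts. Their mature sequences from RefSeq (GRCm38.p6) share the seed, bases 2 to 8, in capitals.
miR-196a-5p: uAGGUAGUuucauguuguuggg
miR-196b-5p: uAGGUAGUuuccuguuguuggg
The row of Mir196a-1, which lies in the Hoxb cluster (chromosome 11, mature bases 96265187 to 96265208), was at 3.75 and 2.92 RPKM in KO AdDlx3 and 3.33 and 3.21 RPKM in WT AdDlx3, against 3.92 and 5.05 RPKM in KO AdGFP and 2.05 and 4.54 RPKM in WT AdGFP. Its groups overlapped and its difference was -0.15 (limma adjusted p = 0.637). Libraries of polyadenylated RNA do not measure mature microRNA, so these values are of longer transcripts over that locus.

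Of 17 hair genes known to depend on Hoxc13 in mouse, 14 stayed below 1 RPKM in every library, among them each of the 13 hair keratin genes on the list. Of the 3 tested, Foxn1, a factor of hair keratin expression, fell and the others did not pass, beside the 5.74% of all genes that fell. Foxn1 was measured at 4.52 and 0.897 RPKM in KO AdDlx3 and 5.64 and 0.510 RPKM in WT AdDlx3, against 24.0 and 15.7 RPKM in KO AdGFP and 17.4 and 20.3 RPKM in WT AdGFP (-2.93 ± 0.58 SE, limma adjusted p = 0.00912). It was lower with AdDlx3 in both batches, with differences of -1.91 in A and -3.95 in B, while Hoxc13 itself overlapped between viruses.

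Hox genes are also expressed by other skin cells, so markers of those cells were read beside the Hox values. Dermal fibroblast markers, of which 6 of 10 were tested, summed to 53.6 to 107 RPKM with AdDlx3 and 49.6 to 70.2 RPKM with AdGFP; Col1a2 rose (1.31, limma adjusted p = 0.0398), though the list had 0 up and 1 down after scaling, and 2 up and 2 down with the block. Of these markers, Lum, Pdgfra and Dpt stayed below 1 RPKM in every library, and Col1a1 ranged over 0.995 to 4.79 RPKM with AdDlx3 and 3.17 to 8.91 RPKM with AdGFP. Others were well expressed. Fbln1 ranged over 14.3 to 39.2 RPKM with AdDlx3 and 16.3 to 21.4 RPKM with AdGFP. Thy1 ranged over 12.4 to 42.5 RPKM with AdDlx3 and 10.5 to 34.6 RPKM with AdGFP. Dcn ranged over 1.16 to 13.6 RPKM with AdDlx3 and 0.567 to 2.75 RPKM with AdGFP. Keratinocyte markers, all 11 tested, summed to 1012 to 8795 RPKM with AdDlx3 and 11558 to 17666 RPKM with AdGFP, with 1 up and 2 down, 0 up and 5 down after scaling, and 2 up and 8 down with the block. Melanocyte markers summed to 165 to 414 RPKM with AdDlx3 and 223 to 382 RPKM with AdGFP, and 0 of 7 passed in limma, with 0 at an unadjusted p under 0.05; 2 fell after scaling and 1 fell with the block. Schwann cell markers summed to 10.1 to 13.8 RPKM with AdDlx3 and 8.59 to 11.5 RPKM with AdGFP, muscle markers to 2.97 to 5.44 RPKM with AdDlx3 and 4.87 to 9.86 RPKM with AdGFP, endothelial markers to 4.68 to 7.75 RPKM with AdDlx3 and 2.94 to 5.85 RPKM with AdGFP, and immune markers to 1.38 to 2.52 RPKM with AdDlx3 and 0.555 to 2.13 RPKM with AdGFP. Of these, 1 Schwann, 1 endothelial and 1 immune marker rose, and 1 muscle and 1 endothelial marker fell. The Schwann marker Ngfr and the immune marker Cd74 reached 1 RPKM in AdDlx3 libraries only, and the endothelial marker Kdr in AdGFP libraries only. Each of them thus entered the test through the group where it was higher. Among all genes tested 23.4% rose and 5.74% fell. The part of these markers in the Hox differences was not tested.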

How the data were processed

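The submitters' processing notes name TopHat2 2.1.1, Partek, bcl2fastq 2.20.0.422 and the build mm10, without roles; the annotation, counting and strand settings were not found in these sources. The authors deposited RPKM values for 26202 genes in 8 libraries, and a table of their own comparisons with log2 group means, p-values, q-values, ratios and a signed fold change score (the ratio, or minus its inverse). Alignment counts and batches come from the deposited sample sheet. Of the deposited RPKM values, 2808 lie above 0 but under what 1 read on a very long gene would give, so they are not whole reads and no count test was run.

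The 12090 genes that reached 1 RPKM in 2 or more libraries were analysed as log2(RPKM + 0.5) with limma 3.58.1 (moderated variances with an intensity trend) in R 4.3.3. An additive model of genotype and virus gave each effect over both levels of the other, with 5 residual and 3.04 prior degrees of freedom; a model of the 4 groups, with 4 and 2.875, gave the effect in each genotype, the interaction and, added after the data were seen, KO against WT under AdGFP. P-values were adjusted by Benjamini-Hochberg over all genes tested; every adjusted p is from limma, with 0.05 as the threshold. Log2 differences understate the change of low genes. The scripts were tested on simulated data. Confidence intervals cover 95% and take the error of the fit alone; RPKM values carry no read counts, so counting error per value is not given.

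The sample sheet puts replicate 1 in batch A and replicate 2 in batch B, so libraries are paired by number; after subtracting group means, libraries with the same number correlated at 0.351 to 0.876. Alternatives were pseudocounts of 1 and 0.1, no filter, a filter of 4 libraries, median-of-ratios scaling, a replicate block, and leaving out each library. Genes named are all Hox members past the threshold or with a mean of at least 1 RPKM, Hoxc13, Dlx3 and, from each other list, up to 4 members past the threshold with the smallest adjusted p; other members and markers were named after their values were seen. The members and lists were chosen with earlier results of these data known. Gene positions and overlaps are from GENCODE M21 (GRCm38), and promoter and microRNA sequences from RefSeq tables. Some genes that the rule would name are not reported here, though counts and sums include them.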

Additional observations from a re-analysis of the deposited data

How the results depend on the processing

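Over both genotypes, 9 Hox genes passed. After median-of-ratios scaling 5 did, and with the replicate block, in which the numbers pair the batches, 16 did. Of all 12090 genes 3525 passed, against 2635 after scaling and 5908 with the block. Leaving out each library left 3 to 9. In KO cells 2 Hox genes passed, against 0 with no filter on low values, 1 after scaling, 9 with the replicate block and 7 with the block and scaling. Of all 12090 genes 643 passed in KO cells, against 349 after scaling, 2976 with the block and 2250 with both. With no filter 363 of 23265 genes did. In WT cells 2 Hox genes passed, against 0 with no filter, 0 after scaling, 8 with the replicate block and 4 with the block and scaling. Of all 12090 genes 317 passed in WT cells, against 155 after scaling, 2657 with the block and 1908 with both. With no filter 128 of 23265 genes did. Among the lists, the 12 Polycomb and Trithorax genes became 4 after scaling and 19 with the replicate block, the 4 genes at the clusters' edges became 0 and 7, the 1 other regulator became 2 and 3, and the 1 Hoxc13-dependent gene became 2 with the block. For these changes the cause was not tested. The comparison of KO with WT under AdGFP alone was added after the data were seen; 0 Hox genes passed in it under each setting run.

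No Hox gene that passed changed sign. Of those that did not pass, scaling, with or without the block, gave -0.0925 for Hoxa5, -0.0726 for Hoxa9, -0.0122 for Hoxb3, -0.25 for Hoxb9 and -0.16 for Hoxc13. Leaving out each library gave -0.147 to 0.145 for Hoxb9 and -0.0624 to 0.165 for Hoxc13. With no filter, 9 of 39 Hox genes passed, against 16.9% of all genes, among them Hoxd3, Hoxd8 and Hoxd9, while Hoxb2, Hoxb7 and Hoxc8 did not. For all genes over both genotypes, 80.3% of those that passed were higher with AdDlx3 as deposited and 44.4% after scaling. Precision is limited by 2 libraries a group and by levels of a few RPKM; within a genotype, 4 residual degrees of freedom remain. No library stood apart by Dixon's test within any group of 4 among the Hox genes, out of 46 groups examined. That test looks for 1 library apart from the rest, so it does not flag 2 batch B libraries that moved together. With AdDlx3, Hoxc4 was such a case, at 2.79 and 2.70 RPKM in batch B against 5.27 and 4.98 RPKM in batch A.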
